A study of Mus musculus with 6 samples.

Results

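Integrins and tetraspanins are 2 families of membrane proteins that sit together at the cell surface, and 49 of their genes were compared between the mouse malignant mesothelioma lines AC29 and AB1. The members were taken by gene symbol from the array's annotation: every integrin alpha chain and the numbered integrin beta chains, every Tspan gene, and Cd9, Cd37, Cd53, Cd63, Cd81, Cd82 and Cd151 where a probe set carried that symbol alone. The 49 genes, 24 integrin chains and 25 tetraspanins, were among 18193 genes tested, and where a gene had several probe sets the one brightest on average across the 6 arrays stood for it. They had 110 probe sets in all, 31 genes having more than 1. Cd63, Tspan7, Itga11 and Itgad were not analysed here.

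Mesothelioma arises from the cell layer that lines the chest and abdominal cavities, and asbestos exposure gave rise to both lines. AC29 derives from a CBA mouse and was at passage 60, and AB1 derives from a BALB/c mouse and was at passage 40; both donors were females of 6 to 8 weeks. Cells of both lines grew in RPMI medium with 5% foetal calf serum and were taken without further treatment at 80% confluency. RNA from 3 flasks of each line was hybridised to an Affymetrix 3′ array, 1 array per flask, so p-values measure the spread between flasks. Each line stands for a single tumour, and differences of strain, of passage or of array processing cannot be told apart from that between the lines. Values are log2 intensities after RMA, a method that corrects background, normalizes the arrays and summarises the probes of a set. In bulk RNA of this kind, fewer cells with a transcript and less transcript per cell cannot be told apart.

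An integrin is a pair of 1 alpha and 1 beta chain that binds matrix proteins or receptors on other cells outside and the actin cytoskeleton inside. The pair sets the ligand: some bind laminin, some collagen, and others fibronectin or vitronectin through the tripeptide RGD. Tetraspanins cross the membrane 4 times and gather partners such as integrins, proteases and immunoglobulin-domain proteins into microdomains, and so affect where these partners go and how they are processed.

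The promoters of the 3 tetraspanin genes whose chosen probe sets differed most between the lines are shown first, since they are the regulatory sequences next to the differences described below. They are the 250 bases before the annotated start in RefSeq, build GRCm38.p6, and capitals mark CpG dinucleotides, the sites of DNA methylation in mammals. Tspan8 lies on the plus strand at chr10:115817034-115817283, Tspan15 on the minus strand at chr10:62231219-62231468, and Tspan11 on the plus strand at chr6:127887372-127887621.
Tspan8: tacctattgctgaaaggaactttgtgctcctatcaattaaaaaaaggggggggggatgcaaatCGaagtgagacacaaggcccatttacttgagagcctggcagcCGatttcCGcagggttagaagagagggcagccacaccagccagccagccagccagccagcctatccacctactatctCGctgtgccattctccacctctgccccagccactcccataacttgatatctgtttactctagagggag
Tspan15: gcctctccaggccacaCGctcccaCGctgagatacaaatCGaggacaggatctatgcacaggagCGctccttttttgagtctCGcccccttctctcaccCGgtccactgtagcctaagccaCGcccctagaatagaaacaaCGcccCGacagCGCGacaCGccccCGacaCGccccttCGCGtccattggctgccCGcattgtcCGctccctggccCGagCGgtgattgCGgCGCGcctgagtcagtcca
Tspan11: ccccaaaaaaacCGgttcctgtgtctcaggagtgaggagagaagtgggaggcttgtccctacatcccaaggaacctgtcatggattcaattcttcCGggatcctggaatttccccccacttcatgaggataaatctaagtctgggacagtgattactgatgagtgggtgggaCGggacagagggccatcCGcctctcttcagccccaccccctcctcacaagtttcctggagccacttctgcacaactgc
The Tspan15 window held 23 CpG dinucleotides, a number reached by 13.3% of 32851 promoters of that length. The Tspan8 and Tspan11 windows held 4 each, and 44.4% of promoters held that many or fewer. Over the 53 promoters listed for 41 of the members, the number ran from 1 to 33 with a median of 10, against a median of 6 over all promoters. On both strands, Tspan15 held 1 CCAAT box (CCAAT, in 33.8% of promoters) and 1 AP-1 motif (TGANTCA, in 6.75%), with no overlap between them. Neither TATAAA (12.4%), the GC box GGGCGG (32.7%) nor the TEAD motif GGAATG (12.6%) was found in the 3 windows, and Tspan8 and Tspan11 held none of the 5 motifs.

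A gene was called when its adjusted p in limma, by the method of Benjamini and Hochberg over all genes, was under 0.05 and the lines differed at least 2-fold. Of the 49 members, 11 were called (22.4%), against 10.9% of all genes tested. Of these 11, 5 were higher and 6 lower in AC29, against 5.12% and 5.82% of all genes. Of the 34 members above background in at least 1 line, by the floor given below, 10 were called, 4 higher and 6 lower in AC29, where 16.4% of such genes were called, 7.68% higher and 8.7% lower. The median log2 difference (AC29 minus AB1) of the 49 was -0.05 and the median size of the difference 0.43, against -0.00 and 0.20 over all genes. Without the 2-fold minimum, 27 members passed, 12 higher and 15 lower in AC29, where the background was 39.1%, with 19.1% higher and 20.0% lower. For 29 members every array of AC29 lay on one side of every AB1 array (59.2%), against 50.1% of all genes. A floor of 6.07 was used to say where a gene had no signal above background. It is the 95th percentile of the single-array values of 86 probe sets for olfactory, vomeronasal and taste receptors. A line counted as above it when at least 1 of its arrays was: 28 members were above it in both lines, 6 in 1 line and 15 in neither. A fold against a line with no array above the floor is a lower bound.

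**Figure D1:**
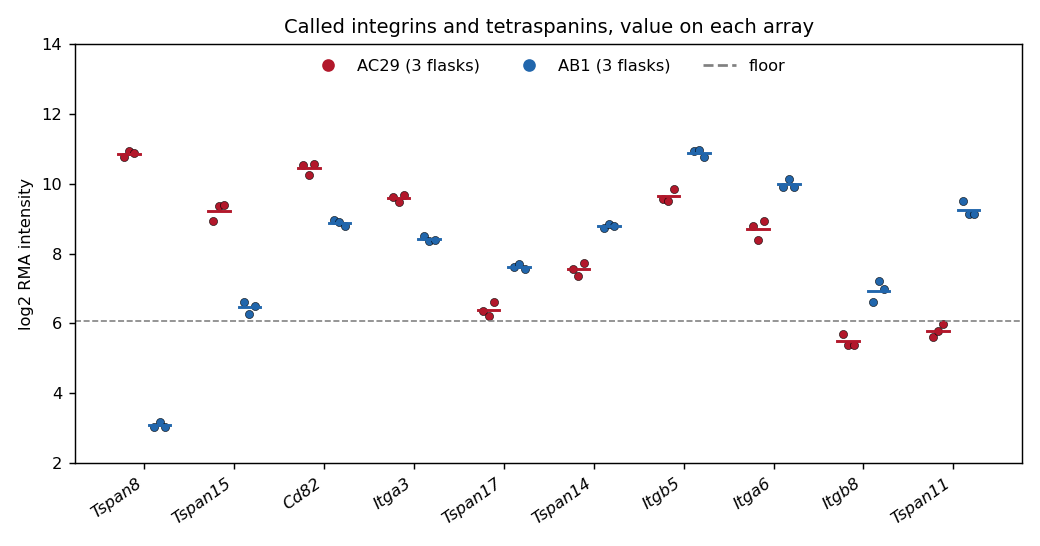
Log2 RMA intensity (vertical axis) of the 10 called members above the floor, with 1 point per array, a bar at the mean of 3 flasks and AC29 left of AB1 for each gene. The dashed line is the floor at 6.07. The arrays of the lines do not overlap for any of the 10 genes, which were picked by their difference. Over all genes tested, 50.1% showed no overlap. Tspan8 in AB1 and Tspan11 and Itgb8 in AC29 lie under the floor on all 3 arrays.

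Among tetraspanins, Tspan8 was higher and Tspan11 lower in AC29, and each was at background in the other line. Tspan8, known from epithelia of the gut and from human carcinomas, read 10.76, 10.94 and 10.88 in AC29, against 3.04, 3.19 and 3.04 in AB1. The AC29 arrays were all far above the floor and the AB1 arrays all under it. Tspan8 was therefore at least 27.6-fold higher in AC29 (log2 difference 7.77 ± 0.09, standard error, limma adjusted p = 1.40e-10). Its other 3 probe sets above the floor also passed, with log2 differences of 3.04, 1.81 and 1.41, so the size depended on the probe set. All 3 were above the floor in AC29 only, so their shared direction is no separate support. Tspan11, a member with little described function, read 5.61, 5.79 and 5.97 in AC29 and 9.51, 9.12 and 9.12 in AB1. It was at least 9.05-fold lower in AC29 (log2 difference -3.46 ± 0.13, limma adjusted p = 6.38e-08). Both of its other probe sets above the floor passed as well, with log2 differences of -2.73 and -1.70 and the AC29 arrays under the floor. They too were counted only through the brighter line.

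The genes around them were called in both directions, where 10.9% of all genes and 16.4% of those above the floor were called. Of the nearest 5 protein-coding genes on either side of Tspan8, 10 were measured, 6 of them above the floor, and 1 was called: Ptprb, a receptor phosphatase of endothelium, at 7.15 in AC29 and 5.88 in AB1. Around Tspan15, 10 were measured and 8 above the floor, with Fam241b called higher and the hexokinase Hk1 lower in AC29. Around Tspan11, 9 were measured and 8 above the floor, with the metabolic phosphatase Tigar called higher and the transcription factor Tead4 lower in AC29. Tspan11 lies next to another member, Tspan9, which read 9.85 ± 0.19 in AC29 and 10.11 ± 0.07 in AB1 (SD, n = 3; limma adjusted p = 0.0969). In all, 5 pairs of members were direct neighbours. Cd82 was called and its neighbour Tspan18 was under the floor in both lines, while Itga1 and Itga2, Itgam and Itgax, and Tspan32 and Cd81 held no called gene by their chosen probe sets.

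Members of the TspanC8 group, which bind the protease ADAM10 and guide its maturation and choice of substrate, did not move together. Tspan15 read 8.94, 9.35 and 9.39 in AC29 and 6.62, 6.28 and 6.49 in AB1. All AC29 arrays were higher, and the AB1 arrays lay just above the floor. The gene was 6.78-fold higher in AC29 (log2 difference 2.76 ± 0.14, limma adjusted p = 4.11e-07). Tspan14 went the other way, with 7.55, 7.37 and 7.72 in AC29 and 8.73, 8.84 and 8.80 in AB1. Tspan17 read 6.34, 6.23 and 6.63 in AC29 and 7.63, 7.70 and 7.55 in AB1. For both genes every AC29 array lay under every AB1 array, at 2.36-fold (limma adjusted p = 1.21e-05) and 2.34-fold (limma adjusted p = 2.38e-05) lower in AC29.

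Tspan5 was 1.78-fold lower in AC29 (8.88 ± 0.18 against 9.71 ± 0.07, SD, n = 3; limma adjusted p = 0.000185), under the 2-fold minimum. Its second probe set differed by -0.90 on the log2 scale. Tspan10 read 6.24 in AC29 and 6.12 in AB1, close to the floor in both lines (log2 difference 0.13, 95% interval -0.09 to 0.34). Tspan33 was not above the floor. Thus 1 of 6 measured TspanC8 genes was called higher and 2 were called lower, where 5.12% and 5.82% of all genes were, or 7.68% and 8.7% of those above the floor. The protease gene Adam10 itself read 11.87, 11.39 and 11.60 in AC29 and 10.27, 10.41 and 10.30 in AB1. It was 2.45-fold higher in AC29 (limma adjusted p = 3.00e-05), and log2 differences of 1.12 and 1.49 were found by another pair of its probe sets. Averaged over all its probe sets, 1 of which was under the floor in both lines, the difference of 0.97 missed the 2-fold minimum. The call for Tspan14 rests on a single probe set marked for possible cross-hybridisation, and the second probe set of Tspan17 differed by -0.92.

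**Figure D2:**
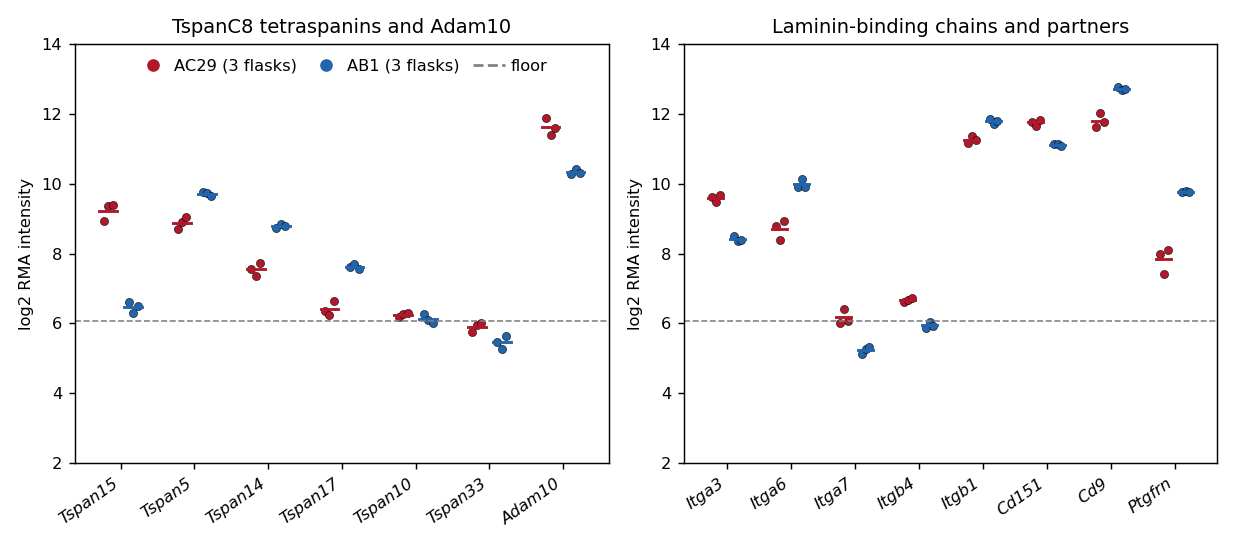
Log2 RMA intensity (vertical axis) of the TspanC8 tetraspanins and Adam10 (left) and of the laminin-binding integrin chains with Itgb1, Cd151, Cd9 and Ptgfrn (right), 1 point per array, a bar at the mean of 3 flasks, AC29 left of AB1. The dashed line is the floor at 6.07. Tspan15, Adam10, Itga3 and Cd151 are higher in AC29, while Tspan5, Tspan14, Tspan17, Itga6, Itgb1, Cd9 and Ptgfrn are lower. Itga7 and Itgb4 are also higher in AC29, with the AB1 arrays under the floor.

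The widely expressed tetraspanins named by CD number also split. Cd82, known in human tumours as a suppressor of metastasis, read 10.54, 10.26 and 10.58 in AC29 and 8.97, 8.90 and 8.79 in AB1. It was 2.98-fold higher in AC29 without overlap of the arrays (limma adjusted p = 2.87e-06). Its second probe set read 7.60 in AC29 and 7.41 in AB1 (log2 difference 0.19, adjusted p = 0.157 over all probe sets), and on the mean of both the difference was 0.88, under the 2-fold minimum. Cd151, which binds laminin receptors, was 1.56-fold higher in AC29 (11.76 ± 0.09 against 11.12 ± 0.03, SD, n = 3; limma adjusted p = 0.000240). Of its 5 other probe sets, 3 differed by 0.72 to 0.79 on the log2 scale, and 2 dimmer ones by 0.06 and 0.00.

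Cd9, which acts in cell fusion and adhesion, was 1.89-fold lower in AC29 (11.61, 12.04 and 11.76, against 12.76, 12.68 and 12.72 in AB1; limma adjusted p = 0.000172). It passed the 2-fold minimum when AC29 replicate 14 was left out (log2 difference -1.04). Its close relative Cd81 was 1.25-fold lower in AC29 (limma adjusted p = 0.0176). Ptgfrn, an immunoglobulin-domain protein that binds both Cd9 and Cd81, was 3.81-fold lower in AC29 (7.99, 7.42 and 8.09, against 9.76, 9.79 and 9.75 in AB1; limma adjusted p = 1.11e-05). A second probe set of Ptgfrn differed by -0.64. Igsf8, the other partner of that kind, named here beyond the rule, read 9.28 in AC29 against 8.89 in AB1 and so was 1.31-fold higher (limma adjusted p = 0.0110).

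The remaining tetraspanins differed less or not detectably. Tspan31, Tspan4 and Tspan2 were lower in AC29, by log2 differences of -0.62, -0.59 and -0.43, at limma adjusted p-values of 0.000373, 0.000777 and 0.00503, all under the 2-fold minimum. For Tspan2, both other probe sets showed wider differences of -0.84 and -0.82. Tspan3 read 10.25 in AC29 and 10.40 in AB1, with a 95% interval of the log2 difference of -0.33 to 0.04. Tspan13 read 6.52 in AC29 and 6.41 in AB1, near the floor. Tspan6 read 9.05, 9.63 and 8.92 in AC29 and 9.16, 9.15 and 9.05 in AB1, where AC29 replicate 14 alone lay above the other arrays. Its second probe set read 8.44, 8.97 and 8.33 in AC29 and 8.03, 8.11 and 7.99 in AB1, without overlap (log2 difference 0.53, adjusted p = 0.0270 over all probe sets). Tspan12, a partner of the Norrin receptor, was called higher in AC29, at 4.27, 4.23 and 3.97 against 2.70, 2.96 and 2.89 in AB1. All 6 of its values were under the floor, so no fold is given.

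Tspan32, a tetraspanin of blood cells, gave different answers by its 2 probe sets. The chosen one read 8.06 ± 0.11 in AC29 and 7.90 ± 0.13 in AB1 (SD, n = 3; limma adjusted p = 0.266). The other read 8.19, 8.22 and 7.54 in AC29, against 4.30, 3.90 and 3.74 in AB1. There every AC29 array was above the floor and every AB1 array under it, at least 3.77-fold higher in AC29 (log2 difference 4.00 ± 0.20, adjusted p = 5.03e-07 over all 45037 probe sets). The files do not say which transcripts each probe set detects. Across the members as a whole, 31 other probe sets of 18 genes lay above the floor in at least 1 line. All 31 had the sign of the chosen probe set, although a Cd151 probe set differed by only 0.00. Of these, 11 passed the rule, 10 for called members and the 1 for Tspan32. Those of Tspan8, Tspan11 and Tspan32 were above the floor only in the brighter line. Entering the count that way favours a shared sign, so their agreement is no separate support. Under the floor the sign was not always shared: an Itga1 probe set there differed by 0.27, against -0.09 by the chosen one.

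**Figure D3:**
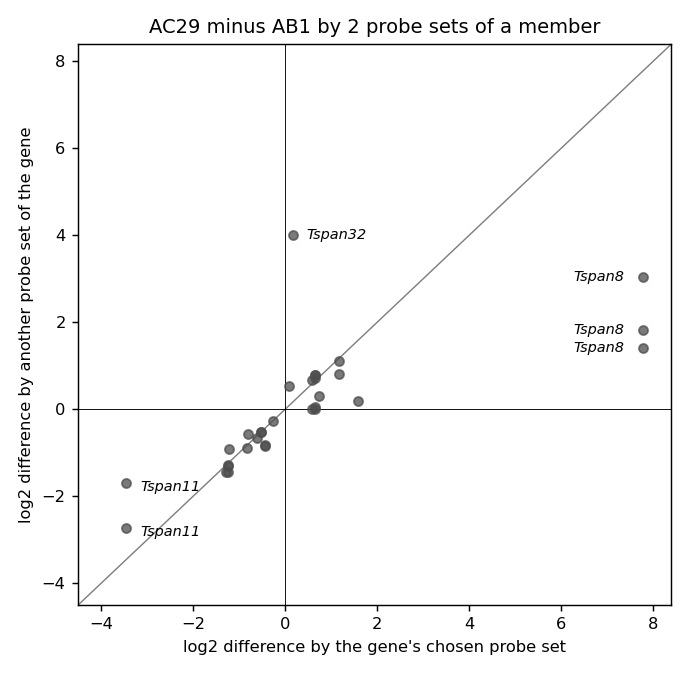
Log2 difference, AC29 minus AB1, by the chosen probe set of a member (horizontal axis) against the difference by each other probe set of the same gene that was above the floor (vertical axis), 31 points from 18 genes. The diagonal marks equal differences. All points lie on the same side of 0 on both axes, some of them from probe sets above the floor only in the brighter line. The Tspan8 points and 1 Tspan32 point lie far from the diagonal.

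Among laminin-binding integrin chains, Itga3 was higher and Itga6 lower in AC29. Itga3 encodes the alpha chain that pairs with the common beta chain Itgb1 and associates with Cd151. It read 9.61, 9.47 and 9.68 in AC29 and 8.50, 8.36 and 8.38 in AB1, 2.25-fold higher in AC29 without overlap (log2 difference 1.17 ± 0.09, limma adjusted p = 7.30e-06). The other probe sets of Itga3 differed by 1.10 and 0.81. Itga6, which pairs with Itgb1 or with Itgb4 of hemidesmosomes, read 8.78, 8.39 and 8.92 in AC29 and 9.92, 10.15 and 9.91 in AB1. It was 2.46-fold lower in AC29, again without overlap (log2 difference -1.30 ± 0.14, limma adjusted p = 6.90e-05), and its second probe set differed by -1.44.

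Itgb4 read 6.67 ± 0.06 in AC29 and 5.95 ± 0.09 in AB1 (SD, n = 3), at least 1.51-fold higher (limma adjusted p = 0.000141), and Itga7, a chain of muscle, read 6.17 in AC29 and 5.23 in AB1 (limma adjusted p = 0.000192). Both were under the floor in AB1 and neither reached a 2-fold difference, although Itga7 did when AC29 replicate 13 was left out (log2 difference 1.02). Itgb1, the chain shared by most of these pairs, was 1.44-fold lower in AC29 (11.26 ± 0.11 against 11.79 ± 0.07; limma adjusted p = 0.00141). The collagen-binding chains Itga1 (6.02 in AC29 and 6.10 in AB1) and Itga2 (6.05 in AC29 and 6.15 in AB1) lay close to the floor, with 95% intervals of the log2 difference of -0.30 to 0.13 and -0.41 to 0.20. Itga9, a receptor chain for several matrix proteins, read 5.84 in AC29 and 5.95 in AB1, with 1 AB1 array above the floor.

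**Figure D4:**
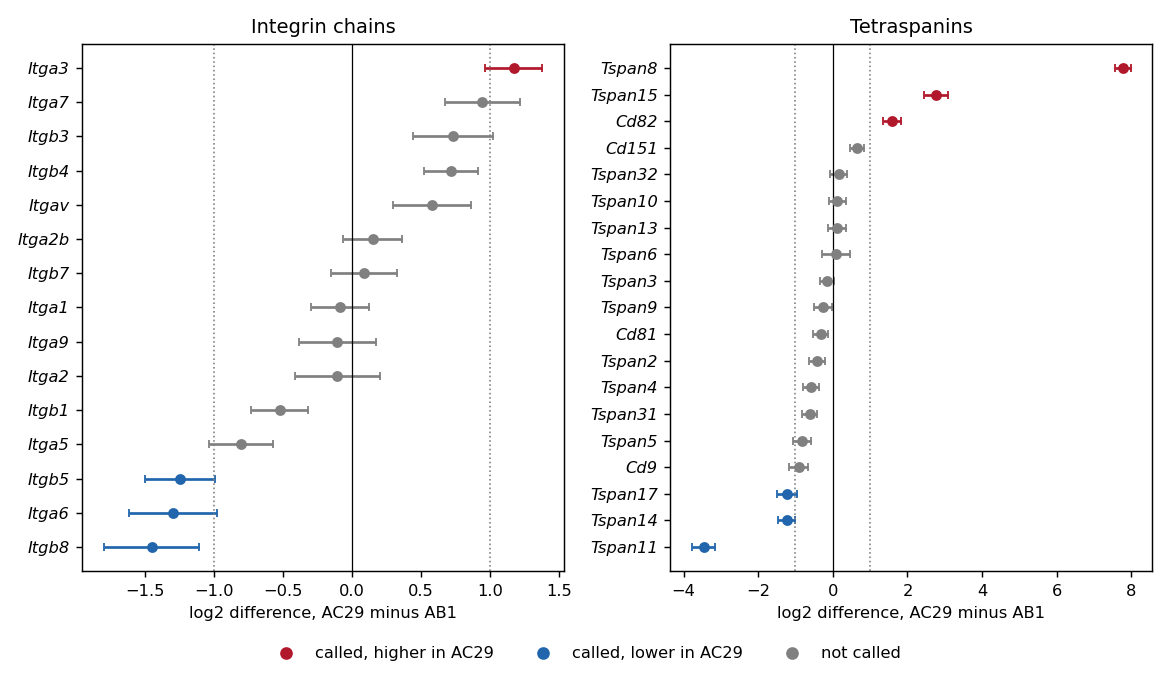
Log2 difference, AC29 minus AB1 (horizontal axis), with its 95% interval from limma, for the 15 integrin chains (left) and 19 tetraspanins (right) above the floor in at least 1 line. Dotted lines mark the 2-fold minimum. Called genes are coloured, and the axes of the panels differ in range because Tspan8 reaches 7.77.

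Of 8 RGD-binding chains, 6 of them above the floor, 2 were called, both lower in AC29, against 5.82% of all genes and 8.7% of those above the floor called lower. Itgb5, a partner of the alpha chain Itgav in binding vitronectin, read 9.57, 9.52 and 9.85 in AC29 and 10.93, 10.97 and 10.78 in AB1. It was 2.37-fold lower in AC29 (log2 difference -1.25 ± 0.11, limma adjusted p = 1.77e-05), and its other 3 probe sets differed by -1.28 to -1.45. Itgb8, which with Itgav activates latent transforming growth factor beta, read 5.69, 5.40 and 5.37 in AC29 and 6.62, 7.20 and 6.99 in AB1. It was at least 1.82-fold lower in AC29 (limma adjusted p = 5.41e-05). The call rests on a log2 difference of -1.45 that uses AC29 readings under the floor, and the bound itself is under 2-fold. The AB1 values of Itgb8 lay between the floor and 7.23, a level that 99% of the single-array values of the receptor probe sets do not exceed.

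Itgb3, another partner of Itgav, was 1.66-fold higher in AC29 (8.38 ± 0.17 against 7.65 ± 0.20, SD, n = 3; limma adjusted p = 0.00138). A second Itgb3 probe set read 6.91 in AC29 and 6.61 in AB1 with overlapping arrays (log2 difference 0.29, adjusted p = 0.187 over all probe sets). Itgav itself was higher in AC29 by 0.58 on the log2 scale (10.95 ± 0.22 against 10.37 ± 0.13; limma adjusted p = 0.00445), with log2 differences of 0.67 by another probe set and 0.01 by one close to the floor. Itga5, which pairs with Itgb1 as the fibronectin receptor, was 1.75-fold lower in AC29 (8.14 ± 0.17 against 8.95 ± 0.05; limma adjusted p = 0.000185). Its second probe set above the floor differed by -0.58. All 3 were under the 2-fold minimum.

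Integrin chains of blood cells were at background or did not differ detectably. Itgae, Itgal, Itgam, Itgax and Itgb2 lay under the floor on every array, with no reading above 5.68. Itga2b of platelets read 7.79 in AC29 and 7.64 in AB1, and Itgb7 of lymphocytes read 7.91 in AC29 and 7.82 in AB1, with 95% intervals of the log2 difference of -0.06 to 0.36 and -0.15 to 0.33. Cd37 and Cd53, tetraspanins of leukocytes, were under the floor in both lines. Of 13 measured leukocyte and platelet markers, 8 were above the floor in neither line, among them Ptprc, Cd79a, Cd2 and Pf4, while Cd3e, Csf1r and Gp9 were above it in both. Lyz2 was above it in AC29 only (6.31 in AC29 and 5.83 in AB1, limma adjusted p = 0.0284) and Cd68 in AB1 only (6.03 in AC29 and 6.68 in AB1, limma adjusted p = 0.000150), both under the 2-fold minimum. The mean level of the 13 ran from 5.26 to 5.35 over the AC29 arrays and from 5.27 to 5.35 over the AB1 arrays. The other members under the floor in both lines were Itga4, Itga8, Itga10, Itgb6, Tspan1, Tspan18 and Tspan33, and no reading of the 15 exceeded 6.01.

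Genes for proteins that link integrins to actin were called at about the background share. Of 36 measured adaptor genes, 1 was called higher and 5 lower in AC29, with a median log2 difference of -0.14. That is 16.7%, against 10.9% of all genes and 16.4% of genes above the floor, as 35 of the 36 were, so the share was near the background. By direction, 7.68% of genes above the floor were called higher and 8.7% lower in AC29. Parvb, which encodes beta-parvin, read 5.55, 5.03 and 5.48 in AC29 and 9.64, 10.00 and 9.78 in AB1, at least 13.3-fold lower in AC29. Ilk, the kinase-like protein that binds parvins and the tails of beta chains, was 2.46-fold lower (9.85, 10.01 and 9.97, against 11.25, 11.23 and 11.25 in AB1). Parva, the fifth called gene and named beyond the rule for this list, was 2.17-fold lower, but a second probe set differed by only -0.38. The actin assembly factor Vasp was 4.36-fold and the focal adhesion protein Tgfb1i1 2.69-fold lower, whereas Tns1, which encodes tensin, was 4.27-fold higher in AC29. These 6 genes had limma adjusted p-values of at most 5.99e-06. The adaptor vinculin (Vcl, 12.12 in AC29 and 12.20 in AB1) and the GTPase Rap1a (11.56 in AC29 and 11.72 in AB1) were not called.

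Ligands of integrins were called in both directions. Of 40 measured, 7 were called higher and 8 lower in AC29, which is 37.5% against 10.9% of all genes, with a median log2 difference of -0.10. Above the floor, 13 of 26 ligands were called, against 16.4% of genes. Higher in AC29 were Icam1 (at least 2.62-fold), the junction protein F11r (8.75-fold), Vcam1 (7.95-fold) and the laminin chain Lama5 (4.41-fold), which forms ligands of the Itga3 and Itga6 receptors. Lower were the collagen IV chains Col4a1 (at least 61.1-fold) and Col4a2 (at least 29.1-fold), Ccn2 (24.8-fold) and Thbs1 (6.67-fold). Other laminin chains, named beyond the rule, went both ways. Lamb1 was 5.49-fold lower in AC29 (9.37 against 11.82 in AB1; limma adjusted p = 5.45e-07), and Lamc1 was 1.40-fold higher (limma adjusted p = 0.00814). The level of laminin ligand was not tested. The fibronectin gene Fn1, ligand of Itga5 with Itgb1, read 12.80 ± 0.23 in AC29, against 13.04 ± 0.11 in AB1 (SD, n = 3; limma adjusted p = 0.182). The collagen I chain Col1a2 (13.88 in AC29, 13.44 in AB1) missed the 2-fold minimum by its chosen probe set. Both of its other probe sets passed the rule as higher in AC29. One differed by 1.32 on the log2 scale (12.40 against 11.07 in AB1), and the other, under the floor in AB1, by 1.51.

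Of 18 measured partners of tetraspanins, 2 were called higher in AC29, Adam10 and the receptor Met (3.85-fold), and 3 lower, or 27.8% in all against 10.9% of all genes and 16.4% of those above the floor, with a median log2 difference of -0.00. Hbegf, a growth factor precursor that binds Cd9, was 7.19-fold lower in AC29, followed by Ptgfrn and by Cd44 at 2.03-fold. Cd44 fell under the 2-fold minimum without AC29 replicate 15 (log2 difference -0.97) or AB1 replicate 5 (-0.998), although another pair of its probe sets differed by -1.65 and -1.59. Basigin (Bsg, 12.76 in AC29 and 12.62 in AB1) and syntenin (Sdcbp, 12.01 in AC29 and 12.27 in AB1) were not called. Upk1b, a uroplakin with the tetraspanin fold that the symbol rule does not take, read 12.58, 12.42 and 12.76 in AC29 and 5.80, 5.88 and 6.04 in AB1. It was at least 91.4-fold higher in AC29 (limma adjusted p = 4.18e-10), and its other 3 probe sets differed by 5.44 to 7.71.

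The labelled cell type was checked with 10 mesothelial markers. All 10 were above the floor in AC29 and 5 in AB1, where Bnc1, Krt8, Lrrn4, Upk3b and Wt1 were not, and the mean level ran from 10.77 to 10.88 in AC29 and from 6.63 to 6.70 in AB1. The 8 fibroblast markers went both ways, with a median log2 difference of -0.03: Col1a1 was called higher in AC29 (3.24-fold) and Pdgfrb lower (at least 8.21-fold). Their mean level ran from 8.42 to 8.62 in AC29 and from 8.88 to 9.004 in AB1. Of the endothelial markers, 6 of 7 were under the floor in both lines. The mesothelial markers, 8 of 10 called higher in AC29, move with the same contrast as the members, and their part in the differences above was not tested.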

How the data were processed

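Total RNA from 3 flasks of each line was labelled with biotin from 5 ug and hybridised, per the labels' protocols, each flask to its own array. Each array's deposited table holds log2 values by probe set. GCOS, RMA and Partek 6.4 appear in the submitters' processing notes without role or order, and the log2 scale was taken from the values, which run from 2.23 to 14.69. RMA pulls dim values together and flattens bright ones, which can understate differences. Scan batches and detection calls were not analysed here.

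After 64 control probe sets were left out, 45037 were fitted with limma 3.58.1 in R 4.3.3 (lmFit, eBayes, 2-sided, line as the only term). Gene names came from the platform annotation. All 49 members matched RefSeq by Entrez identifier, and 41 had a promoter there. The members and gene lists were chosen with earlier results of these data known, so no list was tested. Members above the floor were named with values, called ones array by array; other lists were limited to 4 called genes in each direction and to the 2 uncalled genes of highest mean. On simulated data with 18193 genes, 50 of them changed at each size tried, 44% of log2 changes of 1 and 96% of changes of 1.5 were called. Of the unchanged genes, 0 were called. Far more genes differed in the real data, where 39.1% passed the adjusted p without the 2-fold minimum. The adjustment depends on that share, so the simulated rates do not carry over directly. A change of 1 lies on the 2-fold minimum itself, so the 44% is set mostly by that threshold. Precision rests on the number of arrays. The alternatives changed the normalization, filter, probe sets, variance model, thresholds, floor and arrays used.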

Additional observations from a re-analysis of the deposited data

How the results depend on the processing

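Direction held for all 10 called members above the floor in every fit that included them. These genes were picked for a difference of at least 2-fold, and several fits reuse the same estimate of it. The held direction is therefore no separate support. Quantile normalization, median centring, array weights, the trend and robust settings and the filter on genes with a mean above the floor moved no count of called members, integrins or tetraspanins in either direction past 1.5 times. When limma's treat tested against a 2-fold difference, 3 members were called higher in AC29 (Tspan8, Tspan15 and Cd82) and 1 lower (Tspan11), so 1 tetraspanin was called lower and 0 integrins in either direction, with 1 integrin higher and 3 lower at an unadjusted p under 0.05. That test also left 1 tetraspanin partner higher. Without the 2-fold minimum, 19.1% of all genes were higher and 20.0% lower in AC29. The counts higher and lower were then 12 and 15 of 49 members, 6 and 6 of 24 integrins and 6 and 9 of 25 tetraspanins. They were 4 and 15 of 36 adaptors, 11 and 13 of 40 ligands and 6 and 7 of 18 partners. Probe sets with names ending in _a_at, _s_at or _x_at were taken as marked for possible cross-hybridisation. With these removed, 1 tetraspanin was lower in AC29, because Tspan14 has no other probe set and that of Tspan17 differed by -0.92. The chosen Tspan8 probe set was removed too. The brightest Tspan8 probe set that remained differed by 1.81, at least 3.33-fold higher in AC29. The filter on mean level left 4 ligands higher, as fewer genes were tested, and the mean of probe sets left 1 partner higher. Leaving out 1 array at a time gave 5 to 6 members higher and 6 to 7 lower in AC29, with 3 to 4 integrins lower and 1 to 2 higher, Itga7 being added without AC29 replicate 13. Sign changed only for genes with small differences that were not called: Itga9 (0.0092 without AB1 replicate 4, range -0.20 to 0.0092), Itga2 (0.023 without AB1 replicate 6, range -0.25 to 0.023), Tspan6 (-0.014 with array weights, and -0.13 to 0.22 leaving out 1 array), Itga1 (0.090 on the mean of probe sets), Rap1a (0.12 on that mean, 0.40 by another probe set), Sdcbp (0.31 by another probe set) and Bsg (-0.014 without AC29 replicate 14, range -0.014 to 0.28). The cause was not tested. With the floor at the 90th or 99th percentile, Tspan8 was at least 36.2-fold or 12.4-fold higher and Tspan11 at least 10.99-fold or 4.06-fold lower in AC29. No paired analysis was possible because the lines share no replicate number in the labels. Signal near the floor limits Itgb8, Itga7, Itgb4 and Tspan12.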
